A study of Mus musculus with 3 samples.

Results

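The comparison set 3 libraries labelled siEp300 directly against 3 libraries labelled siBard1, 6 of the 129 libraries in the deposited count table. They were chosen by column name, and a library carries the number of its replicate, which is also the sequenced pool it belonged to. All the cells were primary mouse embryonic fibroblasts (MEFs) of wild-type BL6 mice, used at passage 2, that carried lentiviral vectors for rtTA and for a doxycycline-inducible cassette of Oct4, Sox2, Klf4 and c-Myc. They were transfected with a pool of siRNAs at 40 nM, re-plated 24 h later, and induced with doxycycline at 2 μg/ml together with chiron at 3 μM, Alk5i at 0.25 μM, ascorbic acid at 50 μg/ml and LIF, and RNA was taken on day 6 of reprogramming. A non-targeting siRNA (nt) was given to the reference libraries in the same way, and the untransfected time course (Day00 to Day06) came from cells with the same vectors. The pair was taken up with the comparison of each siRNA with nt in view, so levels in nt are given beside the pair as a description. The study's question was how chromatin-associated proteins act in early reprogramming, and a direct contrast asks in which genes these 2 treatments differ.

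p300, the product of Ep300, is a histone acetyltransferase and transcriptional coactivator that is recruited by many transcription factors and marks active enhancers. Its close relative CBP, encoded by Crebbp, shares its catalytic domain and many partners. BARD1 joins BRCA1 in a RING-type ubiquitin ligase that modifies histone H2A and is needed for homologous recombination at broken DNA. In reprogramming fibroblasts, genes of the mesenchymal programme, such as those of the matrix and of the fibroblast surface, are shut down early.

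The siRNA strands are printed because they define the 2 treatments. Each pool held 3 siRNAs per target according to the methods, and 2 per target were in the list of reagents used here, under the transcript of each gene. Each strand runs 5′ to 3′ with 2 overhanging bases at its 3′ end, and capitals in the antisense strand mark the seed, its bases 2 to 8.
siEp300-1 sense: ggcuugacuucuccaaacatt
siEp300-1 antisense: uGUUUGGAgaagucaagcctg
siEp300-2 sense: gguaugaugaacaguccagtt
siEp300-2 antisense: cUGGACUGuucaucauacctg
siBard1-1 sense: ccucaagauaaaccgacaatt
siBard1-1 antisense: uUGUCGGUuuaucuugaggtc
siBard1-2 sense: ggaugugagcacaucuucutt
siBard1-2 antisense: aGAAGAUGugcucacaucctc

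Both Ep300 sites lay in coding sequence of exon 2 of 31 in the GENCODE vM21 transcript used, at chr15:81601201-81601219 and chr15:81601270-81601288 on the plus strand of GRCm38. The Bard1 sites lay in coding sequence of exons 3 and 2 of 11, at chr1:71088167-71088185 and chr1:71089475-71089493 on the minus strand. No other annotated gene held any of the 4 full sites. The 4 seeds were distinct: the 7 bases that pair with them in a transcript are TCCAAAC and CAGTCCA for the siEp300 strands, and ACCGACA and CATCTTC for the siBard1 strands. These letters were looked for on the sense strand of the longest annotated 3′ UTR of each gene.

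The siRNA targets could not be judged well at this depth, and Ep300 went against its label. CEL-Seq2 counts unique molecules at the 3′ end of a transcript, so these counts do not read the siRNA sites. Ep300 had 4, 4 and 9 counts in the libraries labelled siEp300 (replicates 1 to 3), 5, 0 and 5 in those labelled siBard1, and 0, 3 and 0 in nt. Per total counts, its level was 1.27 times that in siBard1 (exact 95% Poisson interval 0.551 to 3.12) and 4.25 times that in nt (1.23 to 22.6), and so it was not lower where it was targeted. Bard1 had 1, 1 and 0 counts in siEp300, no count in the 3 libraries labelled siBard1, and 2, 0 and 0 in nt. A count of 0 over the siBard1 libraries allows up to 10.1 CPM of all counts, while nt was at 6.7 CPM, so that a knockdown was not detectable at this depth. The partner genes Brca1 (9, 4 and 2 counts summed over siEp300, siBard1 and nt) and Crebbp (34, 20 and 12) showed no difference between siEp300 and siBard1 beyond counting error, with ratios of 1.69 (0.471 to 7.5) and 1.27 (0.713 to 2.34). Against nt, Ep300 in the siBard1 libraries, where it was not targeted, was at 3.33 times (0.858 to 18.8), and Crebbp in siEp300 at 2.12 times (1.07 to 4.51). The names siEp300 and siBard1 therefore stand for the labels of the libraries throughout.

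Total counts were 80381, 82324 and 235292 in the libraries labelled siEp300, 77282, 68229 and 152976 in those labelled siBard1, and 75100 to 143156 in nt, against a median of 73279 over the series. Replicate 3 of siEp300 was the deepest library of all. Mitochondrial genes took 19.8% to 25.3% of the counts in siEp300 and 19.6% to 25.8% in siBard1. CPM from here on are scaled to the TMM-adjusted total of the tested genes. Malat1, a nuclear RNA, was higher in siEp300 than in siBard1 in each of the 3 replicates (2459, 1787 and 1860 against 1741, 1268 and 1270 CPM). Its part in the results was not tested. None of the 12 fibroblast markers was at 0 summed over the 6 libraries, although Pdgfrb had 2 counts in siEp300 and 4 in siBard1, and their summed level was 3092 to 4689 CPM in siEp300 and 3554 to 4759 CPM in siBard1. Of markers of other cell types, 6 of 11 for macrophages (Ptprc and Csf1r among them), 4 of 9 for endothelium (Cdh5 among them), 4 of 9 for keratinocytes (Krt5 among them), 6 of 9 for neural and glial cells (Sox10 and Dcx among them) and 7 of 10 for skeletal muscle (Myod1 among them) were at 0 counts in all 6 libraries. Members with counts included Stmn2 (38 in siEp300 and 40 in siBard1), Krtdap (25 and 14), Tubb3 (11 and 13), Sfn (9 and 4), Tek (6 and 4), Kdr (5 and 0) and Lyz2 (4 and 6). The summed level ran from 9.05 to 42.9 CPM in siEp300 and from 16 to 55.5 CPM in siBard1 for macrophages, from 14.2 to 57.2 and from 0 to 47.9 CPM for endothelium, from 95 to 129 and from 0 to 125 CPM for keratinocytes, from 71.5 to 312 and from 176 to 243 CPM for neural and glial cells, and from 9.05 to 42.6 and from 0 to 20.8 CPM for skeletal muscle. The part of such cells in the results was not tested. In bulk RNA, fewer cells of a type and less RNA per cell cannot be told apart.

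Of 3013 genes tested, 49 differed between siEp300 and siBard1 at an adjusted p under 0.05 (edgeR's quasi-likelihood test with Benjamini-Hochberg adjustment, 1.63% of genes tested). Of these, 31 were lower (1.03%) and 18 were higher (0.597%) in the libraries labelled siEp300. All 49 had the same sign in each of the 3 replicates. They were called on these same libraries, so nothing is read from this agreement. In 35 of the 49 the 3 siEp300 levels and the 3 siBard1 levels did not overlap, which held for 12.6% of all genes tested. At an unadjusted p under 0.05 there were 326 genes. Over all genes tested the median log2 difference was 0.01. Levels of genes are given as CPM, counts scaled to the TMM-adjusted total of the tested genes, and log2 fold changes as siEp300 minus siBard1. Closest to the threshold on the inside were Serpinb6a and Wnt5a (both adjusted p = 0.0464) and Dnajc2 (0.0484), and on the outside Cd63 (0.0532), Krtcap2 (0.0535) and Dcn (0.0608).

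The number of calls depended on the model and on libraries of other conditions. Without the replicate term 5 genes were called, which were Crabp1, Spp1, Thy1, Prl2c2 and Ncl, and with replicates 1, 2 or 3 left out 23, 13 and 11 genes were called, of which 20, 12 and 10 were among the 49. The fit held the 127 libraries that appear in both deposited tables, and when the other 2 of the count table, replicate 3 of siMtf1 and a Mock library of replicate 3, were added, 23 genes were called, all 23 among the 49, and 18 of the 32 named genes kept their calls.

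**Figure D1:**
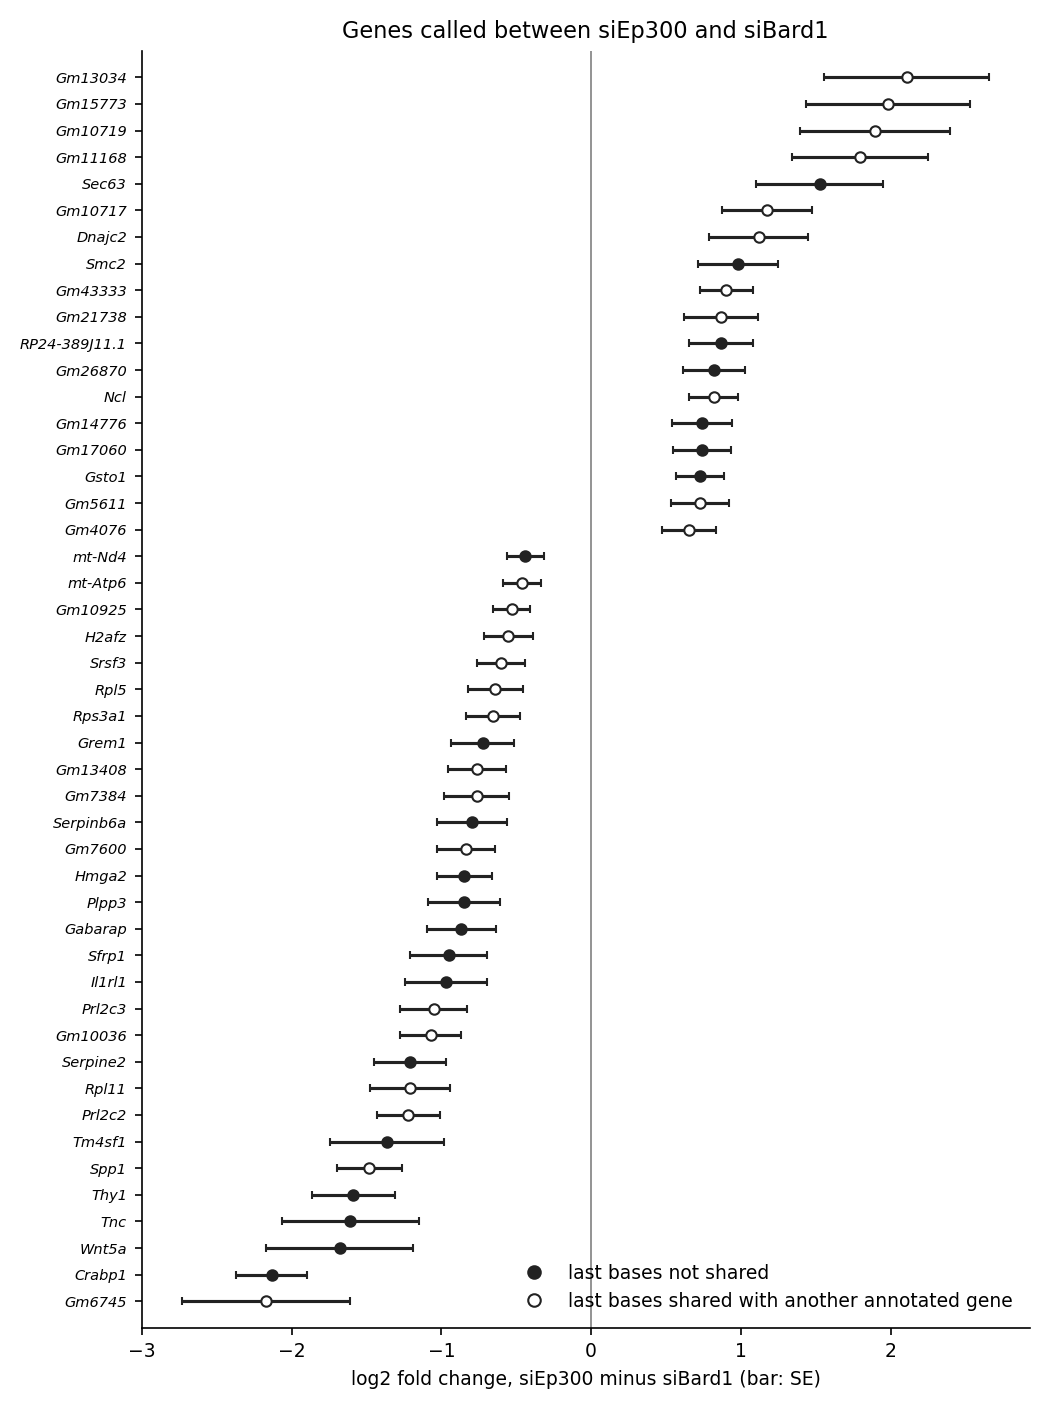
Log2 fold change, siEp300 minus siBard1, of 47 of the 49 genes called (points; bars are SE from the edgeR fit), ordered by size. Open points are genes whose last bases are shared with another annotated gene, 11 of the 18 higher and 15 of the 29 lower genes plotted.

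Of the 48 called genes in the annotation, 28 (58.3%) had an end that another gene shares, against 1132 of the 2965 tested genes in it (38.2%), and no test was made of this difference. Near-identical copies were sought by aligning the last 300 bases of each transcript, and at least 100 aligned bases at 95% identity or more counted as shared. By that measure the 31 lower genes fell into 23 groups of distinct sequence and the 18 higher genes into 15, and a count in 1 member of such a group could have come from another. Protein-coding genes with no such copy numbered 14 among the lower genes and 3 among the higher ones. Spp1 and Ncl were not among these. The measure did not set apart genes that overlap at the same locus. The only match of Ncl was Snora75, which overlaps it on the same strand. Spp1 and Gm43333 had 1 match each, and Gm42793 and Gm17660 overlap them on the same strand.

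Among the 31 lower genes, Gm6745, a pseudogene of Rpl11, had the fitted value farthest from 0 (log2 -2.17), and Crabp1 came next. Crabp1 (chr9:54764748-54773110, plus strand), which encodes a cytoplasmic binding protein for retinoic acid, was at 172, 255 and 181 CPM in the libraries labelled siEp300 and at 1022, 908 and 791 CPM in those labelled siBard1. The groups were far apart, and the nt libraries, at 1132, 613 and 768 CPM, lay in the range around siBard1. The difference was 4.39-fold (log2 -2.13, SE 0.24, adjusted p = 2.18e-13). Spp1 (chr5:104435118-104441050), which encodes osteopontin, a secreted phosphoprotein of the matrix, was at 315, 582 and 538 CPM in siEp300 and at 1277, 1199 and 1555 CPM in siBard1. All 3 siBard1 levels and all 3 nt levels (1582, 793 and 923 CPM) were above the highest siEp300 level, and the fold was 2.79 (log2 -1.48, SE 0.22, adjusted p = 8e-08). Thy1 (chr9:44043384-44048579), the glycosylphosphatidylinositol-anchored surface protein used to mark fibroblasts, was at 129, 156 and 131 CPM in siEp300 and at 479, 394 and 389 CPM in siBard1. Here nt lay between the groups without overlap, at 217, 239 and 180 CPM (3-fold between siEp300 and siBard1, log2 -1.59, SE 0.28, adjusted p = 2.87e-05). Crabp1, Spp1 and Thy1 kept an adjusted p under 0.05 when any 1 replicate was left out and without the replicate term, with the highest of those values 0.0295 for Thy1 without replicate 3.

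**Figure D2:**
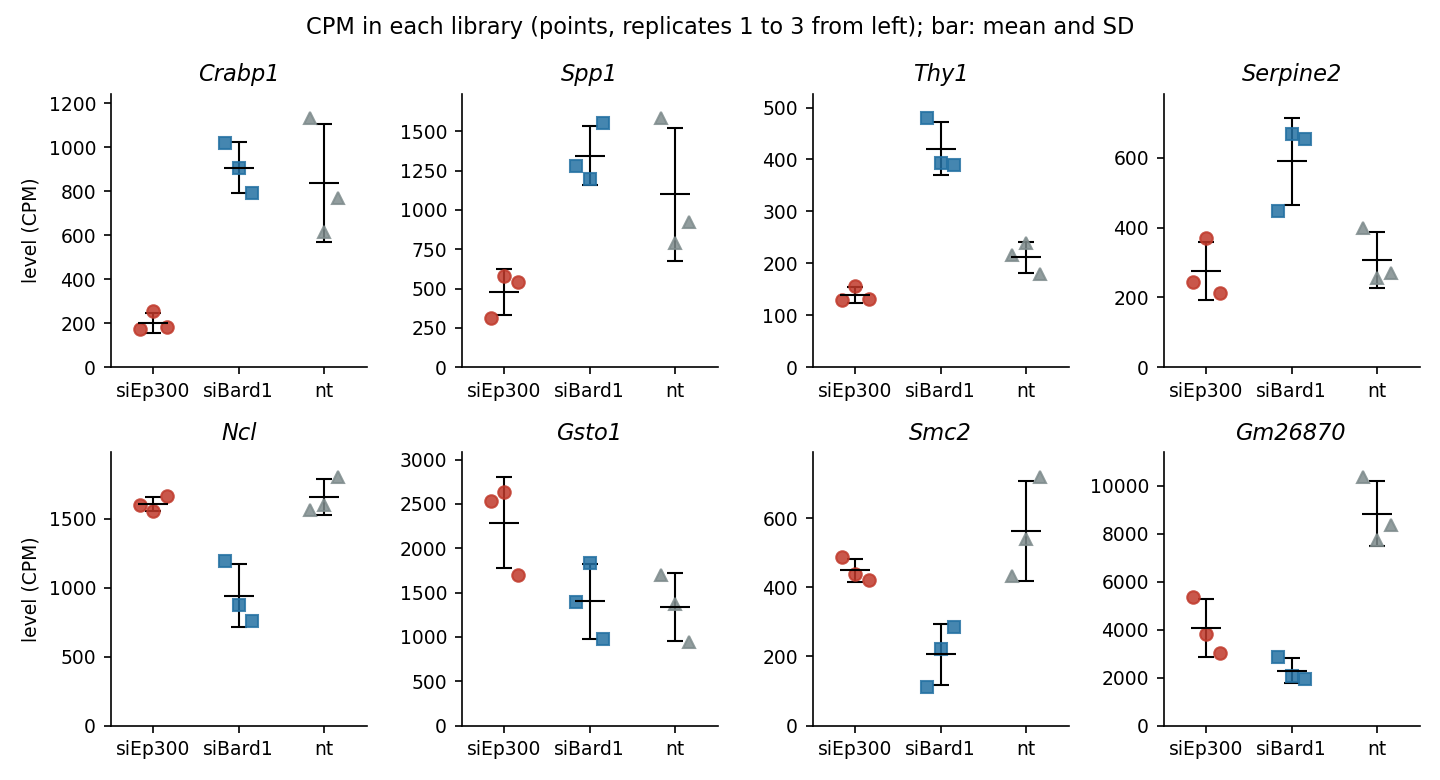
Levels (CPM, linear axes from 0) of 8 genes in the libraries labelled siEp300 (circles), siBard1 (squares) and nt (triangles), replicates 1 to 3 from left to right in each group, with the mean and SD as a bar. Crabp1, Spp1, Thy1 and Serpine2 are lower in every siEp300 library than in every siBard1 library, and for Ncl, Smc2 and Gm26870 the order is the opposite.

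Transcripts of Serpine2, Tnc, Wnt5a and Tm4sf1 were also called lower in siEp300. Serpine2, which encodes the protease inhibitor protease nexin 1, was at 243, 369 and 213 CPM against 447, 668 and 653 CPM in siBard1 (log2 -1.21, SE 0.24, adjusted p = 0.000379, and 0.394 without replicate 3). The nt libraries, at 254 to 400 CPM, were close to those labelled siEp300. Tnc, which encodes the matrix glycoprotein tenascin C, was at 14.3, 56.7 and 63.3 CPM against 128, 103 and 201 CPM (log2 -1.61, SE 0.46, adjusted p = 0.0393), on 19 counts in siEp300. Wnt5a, a ligand of noncanonical Wnt signalling, was at 100, 42.6 and 22.6 CPM against 176, 189 and 111 CPM (log2 -1.68, SE 0.49, adjusted p = 0.0464), on 15 counts in siEp300. Tm4sf1, a membrane protein of the L6 family, was at 71.5, 114 and 99.5 CPM against 95.8, 360 and 278 CPM, and the groups overlapped (log2 -1.36, SE 0.38, adjusted p = 0.0335). For Tnc and Wnt5a the call was lost without any 1 of the 3 replicates (adjusted p of 0.0631 to 0.558), and Wnt5a was called under none of the 9 alternatives that gave it an adjusted p (0.0514 to 0.886). The call of Tm4sf1 was lost without replicate 2 (0.284) and without replicate 3 (0.513).

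The proliferins Prl2c2 and Prl2c3, hormones of the prolactin family that proliferating fibroblasts secrete, share their 3′ ends and cannot be separated. Prl2c2 was at 500, 298 and 430 CPM in siEp300 and at 974, 617 and 1187 CPM in siBard1 (log2 -1.22, SE 0.21, adjusted p = 2.87e-05), and Prl2c3 at 326 to 425 CPM against 497 to 1014 CPM (log2 -1.05, SE 0.22, adjusted p = 0.00147). In both, the siBard1 libraries were the ones away from nt, whose means were 345 ± 137 and 286 ± 71.2 CPM (SD, n = 3). Without replicate 3 the adjusted p was 0.124 for Prl2c2 and 0.35 for Prl2c3. Outside the rule for naming, and picked after their values were seen, the remaining lower genes with no shared sequence were Il1rl1, the receptor of interleukin 33 (log2 -0.97), Sfrp1, a secreted Wnt antagonist (-0.95), Gabarap of the autophagy machinery (-0.87), the lipid phosphatase Plpp3 (-0.85), the chromatin architectural factor Hmga2 (-0.85), Serpinb6a, an intracellular protease inhibitor (-0.80), and the BMP antagonist Grem1 (-0.73). Adjusted p for these 7 ran from 0.00147 for Hmga2 to 0.0464 for Serpinb6a, and each lost its call without replicate 3 (0.124 to 0.737).

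Ribosomal protein genes appeared on the lower side together with their pseudogenes. Rpl11, which encodes a protein of the large subunit, was at 114, 227 and 240 CPM in siEp300 and at 543, 463 and 424 CPM in siBard1 (log2 -1.21, SE 0.27, adjusted p = 0.00236), and nt stood at 372 ± 54.2 CPM. Its processed pseudogenes Gm10036 (log2 -1.07, adjusted p = 0.000173), Gm6745 (-2.17, 0.0209) and Gm7384 (-0.76, 0.0365) were called too. Of the 7 tested genes that share the Rpl11 end, 6 had a fitted value below 0. Gm10036 kept an adjusted p under 0.05 without each replicate, and Rpl11 lost it without replicate 1 (0.218). Gm6745 rested on 9 counts in siEp300 and 29 in siBard1, and its adjusted p was 0.274 and 0.263 without replicates 1 and 2. Among the 70 cytoplasmic ribosomal protein genes tested, 3 were lower, Rpl11 and Rpl5 (log2 -0.64) among them, and none was higher, against 1.03% and 0.597% of all genes tested, and the median log2 of the 70 was -0.06 against 0.01 for all genes. The fitted values split 28 above and 42 below 0. For Rpl5 the 5 tested genes with its 3′ end ranged from -0.73 to -0.17, and for the Rps3a1 group, where Rps3a1, Gm7600 and Gm13408 were called, the 6 tested ranged from -0.84 to -0.45. Rpl5, Rps3a1, Gm7384 and Gm13408 lost their calls whichever replicate was left out (0.0697 to 0.513). Gm7600 lost its call without replicate 1 (0.263) and without replicate 3 (0.162).

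Mitochondrially encoded transcripts were called for mt-Atp6, a subunit of ATP synthase, and mt-Nd4, a subunit of complex I. The former was at 6305, 7106 and 6782 CPM in siEp300 and at 10910, 8670 and 8400 CPM in siBard1 (log2 -0.46, SE 0.13, adjusted p = 0.032), with nt at 8558 ± 1272 CPM. mt-Nd4 was at 20140, 18840 and 15980 CPM against 31520, 24790 and 18970 CPM (log2 -0.44, SE 0.12, adjusted p = 0.0335), and the groups overlapped. Gm10925, a nuclear copy on chromosome 1 with the mt-Atp6 sequence, was called with it (log2 -0.53, adjusted p = 0.00628, but 0.347 and 0.127 without replicates 1 and 2). Of the 13 transcripts of this kind, 11 had fitted values below 0, and their median was -0.26. The summed level of the 13 was 142600, 160600 and 106000 CPM in siEp300 and 188300, 182900 and 117100 CPM in siBard1, lower in siEp300 within each replicate and overlapping between them. As a share of all counts the 13 took 12.4%, 13.7% and 9.95% in siEp300 and 15.3%, 15.6% and 11% in siBard1. The mitochondrial ribosomal RNAs took 10.5%, 11.5% and 9.86% against 10.5%, 8.83% and 8.52%, and the share of all 37 mitochondrial genes was lower in siEp300 in replicate 1 only. Leaving out any 1 replicate lost the call of mt-Atp6 and mt-Nd4 (0.147 to 0.612). Nuclear-encoded genes of the respiratory chain gave no call among 49 tested, with a median of 0.13.

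A pair of nuclear factors completed the named genes of the lower side. Srsf3, a splicing factor of the serine and arginine rich family, was at 929, 1574 and 1090 CPM in siEp300 and at 1900, 2159 and 1479 CPM in siBard1 (log2 -0.60, SE 0.16, adjusted p = 0.0265). H2afz, which encodes the histone variant H2A.Z, was at 1501, 1844 and 1570 CPM against 2252, 2587 and 2346 CPM without overlap (log2 -0.55, SE 0.16, adjusted p = 0.0446). For both, nt was near siBard1, at 1776 ± 181 and 2112 ± 59.1 CPM. Neither call held without any 1 replicate, with adjusted p from 0.114 to 0.429.

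Genes higher in the libraries labelled siEp300 included few with a well-known product. Ncl (chr1:86344719-86359400, minus strand), which encodes nucleolin of the nucleolus, was at 1601, 1560 and 1665 CPM in siEp300 and at 1198, 874 and 757 CPM in siBard1 (1.76-fold, log2 0.82, SE 0.16, adjusted p = 0.000379). The siEp300 levels stood beside those of nt, 1565 to 1805 CPM, and siBard1 was below both in each of the 3. Its adjusted p rose to 0.215 when replicate 3 was left out. Gsto1 (chr19:47854970-47864790, plus strand), a glutathione transferase of the omega class, was at 2530, 2638 and 1697 CPM against 1389, 1833 and 978.8 CPM (log2 0.73, SE 0.16, adjusted p = 0.00254, but 0.061 without replicate 1 and 0.131 without replicate 3). In this gene the groups overlapped, and nt, at 1338 ± 381 CPM, was like siBard1. Smc2 (chr4:52439243-52488260, plus strand), a core subunit of condensin, which compacts mitotic chromosomes, was at 486, 440 and 421 CPM against 112, 223 and 285 CPM (log2 0.98, SE 0.27, adjusted p = 0.0289). It lost its call without replicate 1 (0.435) and without replicate 2 (0.155).

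Dnajc2 and Sec63 were also called higher. Dnajc2, a chaperone partner bound to ribosomes, was at 186, 298 and 249 CPM in siEp300 and at 95.8, 103 and 125 CPM in siBard1 (log2 1.12, SE 0.33, adjusted p = 0.0484). Sec63, a component of the machinery that moves proteins into the endoplasmic reticulum, was at 214, 199 and 145 CPM against 47.9, 17.1 and 83.3 CPM, or 16 counts in all in siBard1 (log2 1.53, SE 0.43, adjusted p = 0.0335). Dnajc2 lost its call without any 1 replicate (0.218 to 0.411), and Sec63 without replicate 1 (0.3) and without replicate 2 (0.411). Gm43333, a transcript of the class TEC on chromosome 5, was at 1287, 950 and 1344 CPM against 655, 377 and 854 CPM (log2 0.90, SE 0.18, adjusted p = 0.000257, and 0.0854 without replicate 2). RP24-389J11.1, which had no single match in the annotation used, was at 1299 to 1959 CPM against 639 to 1198 CPM (log2 0.87, SE 0.21, adjusted p = 0.0142, but 0.0971 without replicate 2 and 0.162 without replicate 3).

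A block of repeated genes gave the other large values on the higher side. Gm26870, an lncRNA at chr9:3000282-3038313 at the centromere-proximal end of chromosome 9, was at 5375, 3830 and 3022 CPM in siEp300 and at 2874, 2073 and 1930 CPM in siBard1 (log2 0.82, SE 0.20, adjusted p = 0.0142). Both groups were below all 3 nt libraries, at 10360, 7747 and 8374 CPM. On the opposite strand of the same interval lie genes with near-identical ends, among them Gm11168 (log2 1.80, adjusted p = 0.0168), Gm10719 (1.90, 0.0258) and Gm10717 (1.18, 0.0209), and Gm21738 on chromosome 14 (0.87, 0.0393) shares the sequence. All 12 tested genes with this end had fitted values above 0, from 0.52 to 1.90, and 4 of them were called. Whether the counting used strand is not given in the sources used here, so that reads of Gm26870 and of the genes opposite it cannot be told apart. Without replicate 3 the adjusted p was 0.0712 for Gm26870 and 0.12 to 0.141 for Gm11168, Gm10719, Gm10717 and Gm21738, and without replicate 2 it was 0.0926 and 0.101 to 0.153. Without replicate 1, Gm26870 and Gm11168 kept their calls, and the others were at 0.124 to 0.356.

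In this block the libraries labelled siBrca1, which were not part of the contrast, stood far from those labelled siBard1. Gm26870 was at 13680 ± 1200 CPM in siBrca1 (SD, n = 3) and at 12040 ± 1504 CPM in the libraries labelled siWdr5, against 2292 ± 509 CPM in siBard1, 4076 ± 1196 CPM in siEp300 and 8826 ± 1363 CPM in nt. In the untransfected time course it ran from 9383 ± 1103 CPM on Day00 to 5036 ± 1650 CPM on Day06. Gm10717 gave the same order of means, with 998 ± 135 CPM in siBrca1, 523 ± 116 CPM in nt, 431 ± 88 CPM in siEp300 and 181 ± 10.2 CPM in siBard1. No test was run on these further conditions.

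The other higher genes at the top of the list were pseudogenes. Gm13034, a processed pseudogene with the end of Smarca5, a chromatin remodelling ATPase, was at 186, 128 and 109 CPM against 16, 17.1 and 41.7 CPM (log2 2.11, SE 0.55, adjusted p = 0.0235), on 8 counts in siBard1. Smarca5 itself was not called (log2 0.64, SE 0.27, adjusted p = 0.301), and all 6 tested genes with its end had fitted values above 0. Gm15773, with the end of Psip1, a chromatin-bound coactivator, was at 114, 128 and 99.5 CPM against 31.9, 17.1 and 27.8 CPM (log2 1.98, SE 0.55, adjusted p = 0.032), on 7 counts in siBard1, and Psip1 was not called (0.84, SE 0.37, adjusted p = 0.335). Gm5611, a copy of the nucleolar gene Npm1, was called (0.73, adjusted p = 0.0266, but 0.275 and 0.215 without replicates 2 and 3) while Npm1 was not (0.07, SE 0.14, adjusted p = 0.923). Neither Gm13034 nor Gm15773 held its call without replicate 1 (0.287 and 0.142) or replicate 2 (0.155 and 0.284), and Gm15773 lost it without replicate 3 too (0.282).

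**Figure D3:**
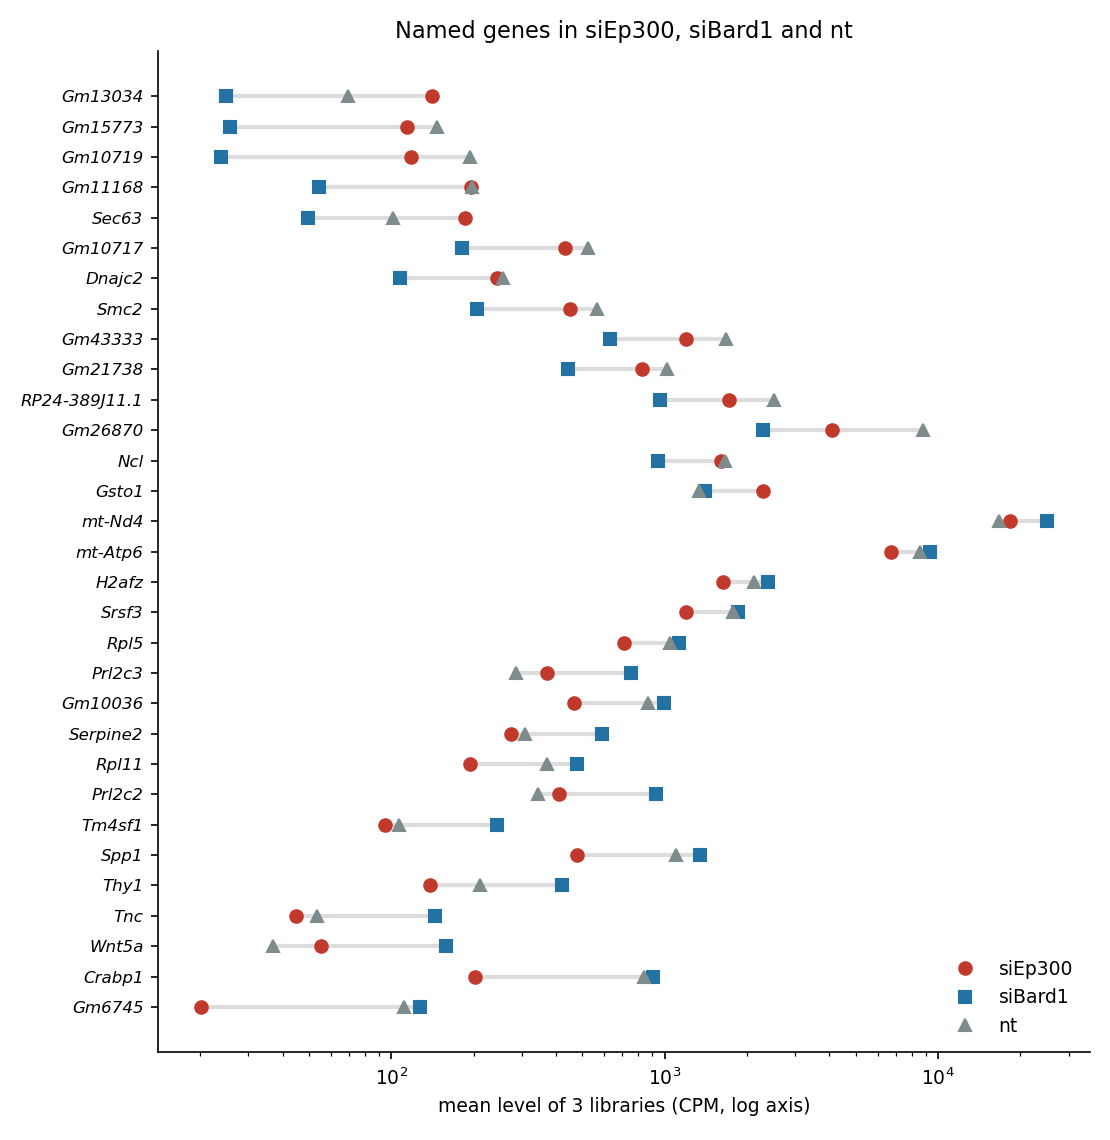
Mean levels (CPM, log axis, 3 libraries each) of 31 of the 32 named genes in the libraries labelled siEp300 (circles), siBard1 (squares) and nt (triangles), joined by a line per gene and ordered by fold change. For Crabp1, Spp1 and Srsf3 the nt mean lies near siBard1, for Ncl and Dnajc2 near siEp300, and for Gm26870 above both.

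The position of nt differed between the 2 sides of the list. Of the 31 genes lower in siEp300, 20 had the nt mean between the 2 groups, 10 had both groups above nt, and 1 had both below, and siEp300 was the nearer group in 16 and siBard1 in 15. Of the 18 genes higher in siEp300, 14 had both groups below nt and 3 had nt between them, and siEp300 was nearer to nt in 16. The median log2 fold change against nt was -0.34 for siEp300 and 0.58 for siBard1 over the lower genes, and -0.40 and -1.39 over the higher genes. Both comparisons with nt share the nt libraries, so that these values are a description only. In Crabp1 and Spp1, siEp300 was away from nt (log2 -2.02 and -1.14) and siBard1 near it (0.11 and 0.34). Serpine2 and Prl2c2 were the other way round, with siBard1 above nt (1.01 and 1.48) and siEp300 near it (-0.19 and 0.26).

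Lists of genes for pathways and cell types placed few of these calls, and their counts stand against 1.03% of all genes tested called lower and 0.597% called higher. Among structural matrix genes, 1 of 22 tested was lower (Tnc) and none was higher, with a median log2 of -0.39 against 0.01 over all genes and 14 of 22 fitted values below 0. Dcn, the proteoglycan decorin, was at 115 CPM in siEp300 and 273 CPM in siBard1 on average (log2 -1.03, SE 0.31, adjusted p = 0.0608), while Col1a1, the main chain of type I collagen, was at 563 and 364 CPM (0.59, SE 0.24, adjusted p = 0.273). Matrix proteases and inhibitors gave 1 lower gene of 10 tested (Serpine2), a median of -0.41 and 8 fitted values below 0, and their summed level was 3474, 3248 and 3194 CPM in siEp300 against 4727, 4643 and 4242 CPM in siBard1, with no overlap. Of the 27 lists with at least 8 genes tested, 5 had summed levels that did not overlap, 3 of them lower and 2 higher in siEp300, and single genes did not overlap in 12.6% of cases, so nothing is read from this count. The others with lower sums in siEp300 were mesenchymal regulators and surface genes (7404 to 9250 against 9526 to 9885 CPM) and annexins, S100 proteins and galectins (7362 to 8479 against 8639 to 10020 CPM), and those with higher sums were NRF2 targets (10230 to 12350 against 8974 to 9801 CPM) and translation factors (9085 to 9965 against 7676 to 8639 CPM). S100a6, a calcium-binding protein that was not called (4644 against 5671 CPM, adjusted p = 0.349), is a member of both lists with lower sums and weighs on each, and the annexin list had a median log2 of 0.06 with 7 of 12 fitted values above 0. Mesenchymal regulators and surface genes gave 1 of 12 (Thy1) with a median of -0.31. Vim, the intermediate filament vimentin, was not called (0.37, SE 0.17, adjusted p = 0.4). The fibroblast markers, which include Thy1, Vim and Col1a1, had 4 fitted values above and 5 below 0 among the 9 tested. Contractile and actin genes (22 tested, median -0.04) and TGF-beta responsive genes (9 tested, median -0.47) gave no call.

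**Figure D4:**
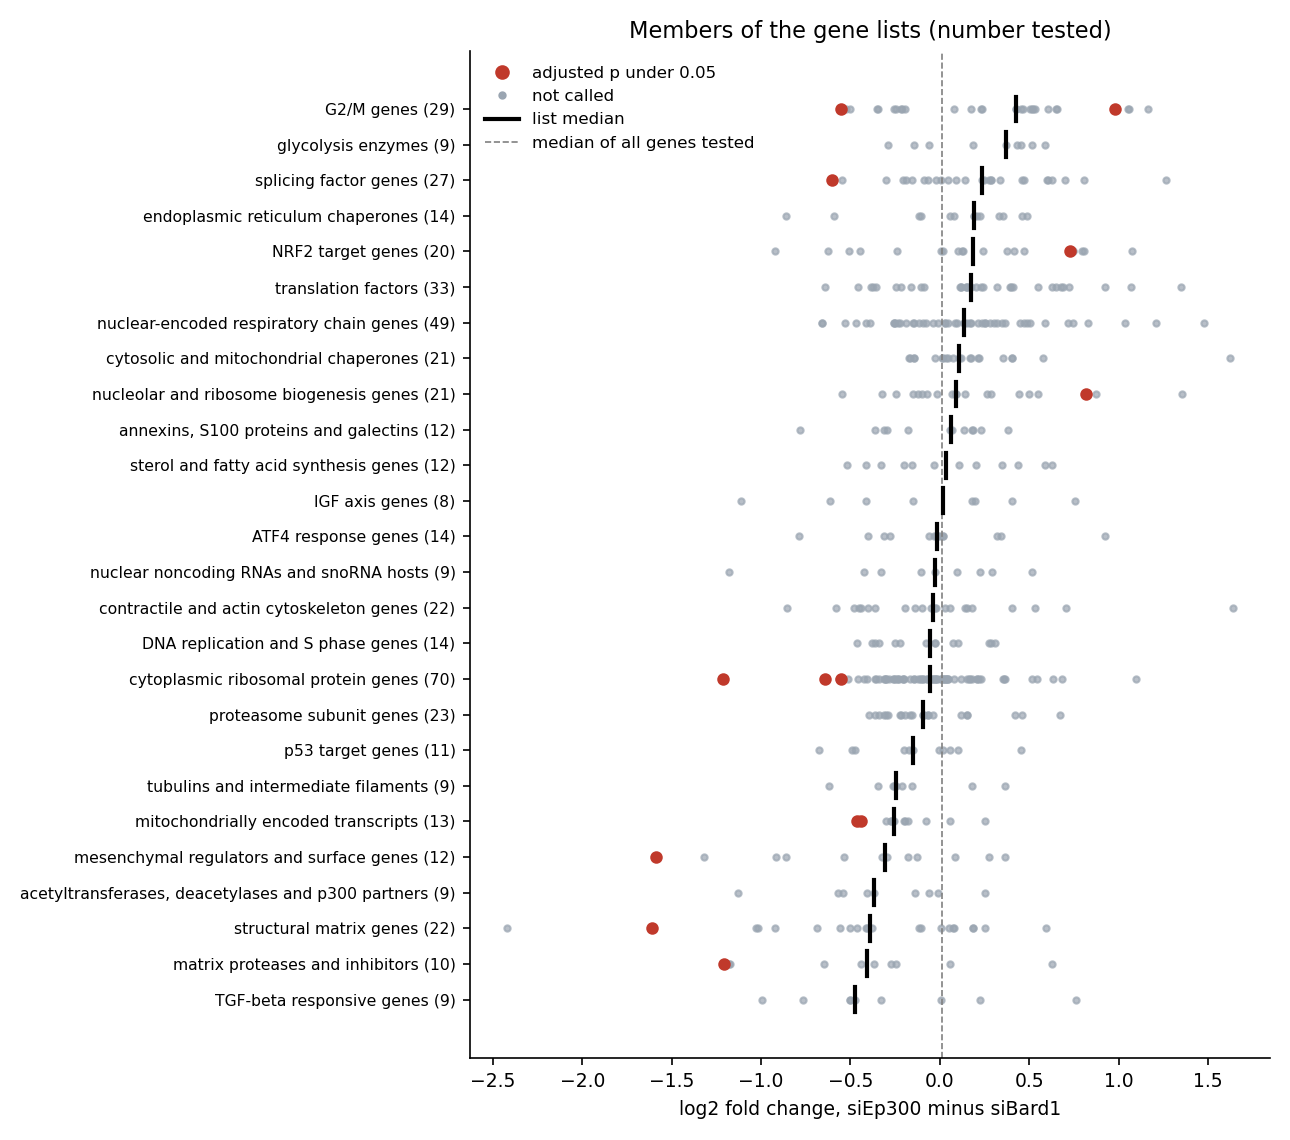
Log2 fold change, siEp300 minus siBard1, of each tested member (points) of the gene lists with at least 8 genes tested, with the list median as a black bar and the median of all genes tested as a dashed line. Coloured points passed the adjusted threshold, and most lists hold none.

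Cell cycle genes of the G2 and M phases had the highest median among the lists with at least 8 genes tested. Of 29 tested, Smc2 was higher and H2afz was lower, the median log2 was 0.42, and 19 fitted values were above 0. Ube2c, the ubiquitin-conjugating enzyme of the anaphase-promoting complex (1.06, SE 0.40, adjusted p = 0.224), Tpx2, a spindle assembly factor (1.05, SE 0.46, adjusted p = 0.335) and Top2a, the mitotic topoisomerase (0.51, SE 0.25, adjusted p = 0.425) did not pass. The summed level of this list, which H2afz weighs on, was 8635, 8071 and 7239 CPM in siEp300 and 8591, 8601 and 7754 CPM in siBard1, so that the groups overlapped. DNA replication genes gave no call among 14 tested (median -0.05). Translation factors gave none among 33 (median 0.17), of which Eif4g1, the scaffold of the cap-binding complex, had the lowest adjusted p (1.07, SE 0.38, adjusted p = 0.162). NRF2 targets gave 1 higher gene of 20 (Gsto1, median 0.19), nucleolar and ribosome biogenesis genes 1 of 21 (Ncl, median 0.09), and splicing factors 1 lower gene of 27 (Srsf3, median 0.24).

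The pathways of the proteins targeted were poorly covered. Of 34 genes of homologous recombination, 3 passed the filter on low counts (Atm, Chek1 and Nono), and none was called. Of 33 acetyltransferases, deacetylases and p300 partners, 9 were tested and none was called, with 8 fitted values below 0 and a median of -0.37. Eid1, an inhibitor of p300, was at 329 CPM in siEp300 and 500 CPM in siBard1 (log2 -0.54, SE 0.23, adjusted p = 0.307), and Crebbp had a log2 of 0.25 (SE 0.48, adjusted p = 0.92). Neither p53 targets (11 tested, median -0.15) nor glycolysis enzymes (9 tested, median 0.37), HIF targets (6 tested, median -0.08) and proteasome subunits (23 tested, median -0.10) held a called gene. No call fell among ATF4 response genes (14 tested), endoplasmic reticulum chaperones (14), cytosolic and mitochondrial chaperones (21), sterol and fatty acid synthesis genes (12), annexins, S100 proteins and galectins (12), tubulins and intermediate filaments (9), the IGF axis (8), immediate early genes (4) or interferon-stimulated genes (3).

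Epithelial and pluripotency genes lay under the filter, and none of the 20 and 22 listed was tested in the comparison. Summed over the epithelial list there were 65 counts in siEp300, 22 in siBard1 and 43 in nt. By library this was 172, 199 and 177 CPM in siEp300, 16, 68.5 and 118 CPM in siBard1, and 163 to 194 CPM in nt, so that siBard1 was the group that stood below. Picked after their values were seen, Epcam, an epithelial adhesion molecule, had 16 counts in siEp300, 2 in siBard1 and 8 in nt. The keratin Krt8, picked in the same way, had 14, 1 and 10. Much of the difference in summed counts between siEp300 and siBard1 came from Epcam and Krt8. In the fit without the filter their unadjusted p-values were 0.00451 and 0.00408 (edgeR), and the adjusted values were 1 and 0.989. Pluripotency genes summed to 54 counts in siEp300, 52 in siBard1 and 52 in nt, or to 153 ± 28.7, 203 ± 116 and 234 ± 131 CPM (SD, n = 3), and the groups overlapped. Tdgf1, a Nodal coreceptor, had 2, 10 and 7 counts, and its adjusted p without the filter was 1.

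Seed matches could be counted for 2 of the 3 siRNAs of each pool. Among the 2418 tested genes with an annotated 3′ UTR, the match of siEp300-1 was in 228 (9.43%) and that of siEp300-2 in 287 (11.9%). Of the 23 lower genes with a 3′ UTR, 1 held the match of siEp300-1 (Grem1) and 2 held that of siEp300-2 (Wnt5a and Sfrp1), while Crabp1, Spp1 and Thy1 held neither. Matches of siBard1-1 and siBard1-2 were in 39 (1.61%) and 364 (15.1%) of the tested genes and in 0 of the 5 higher genes with a 3′ UTR, too few genes to read from. A match is a description of these letters and not of a site.

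The untransfected time course shares no library with the pair, and what it shows of the called genes depended on the earlier day. The Day03 libraries stood apart from the order of the days: on the line from the Day00 mean to the Day06 mean they lay at 0.49 ± 0.07 (SD, n = 3), behind Day01 (0.59 ± 0.01) and Day02 (0.63 ± 0.03). From Day03 to Day06, 239 of the 3013 genes rose (7.93%) and 241 fell (8%) at an adjusted p under 0.05 (edgeR), whereas 52 rose (1.73%) and 79 fell (2.62%) from Day02, and 33 rose (1.1%) and 25 fell (0.83%) from Day04. The contrasts from Day02 and Day04 were added after the position of Day03 was seen. Of the 18 genes higher in siEp300, 6 rose and 2 fell from Day03, and 1 rose and 5 fell from Day02. From Day04, 1 rose and 1 fell. The 5 that fell from Day02 were Gm26870, Gm10717, Gm10719, Gm11168 and Gm21738, all of the block of repeated genes. Reads of these genes may not be separable, so the 5 need not be separate changes. Of the 31 genes lower in siEp300, 4 rose and 6 fell from Day03, 4 rose and 2 fell from Day02, and 2 rose and 3 fell from Day04. Gsto1 rose from each of the 3 days (log2 0.99 from Day02, 0.92 from Day03 and 0.90 from Day04, with adjusted p of 3.3e-06, 8.12e-06 and 2.82e-05), as did H2afz (0.89, 1.33 and 0.68, with adjusted p of 0.00054, 7.78e-08 and 0.0178). Crabp1 rose from Day02 (1.29, adjusted p = 0.000211) and from Day03 (1.05, adjusted p = 0.00151), and its value from Day04 was 0.75 (adjusted p = 0.0575). Spp1 changed direction with the day, and fell from Day03 (-0.61, adjusted p = 0.0413) but rose from Day02 (1.28, adjusted p = 0.000267) and from Day04 (1.11, adjusted p = 0.00228). Its day means were 1436, 128, 286, 1047, 327, 718 and 676 CPM from Day00 to Day06. Prl2c2 fell from Day02 (-1.15, adjusted p = 0.0163) and from Day03 (-2.48, adjusted p = 2.11e-13), with a Day03 mean of 754 CPM between 288 CPM on Day02 and 200 CPM on Day04. Ncl rose from Day03 (0.86, adjusted p = 4.13e-05), with values of 0.35 from Day02 (adjusted p = 0.229) and -0.27 from Day04 (adjusted p = 0.473). Thy1 was called from none of the 3 days. Its values were 0.287 from Day02, 0.212 from Day03 and 0.545 from Day04 (adjusted p of 0.64, 0.656 and 0.345). The Thy1 mean was 304 CPM on Day00 and 377 CPM on Day06. Between siEp300 minus siBard1 and Day06 minus Day03, the Pearson correlation of fold changes was 0.02 over all 3013 genes and 0.28 over the 49 called genes, and the Spearman correlation 0.01 and 0.30, as a description across genes, which are not independent replicates.

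**Figure D5:**
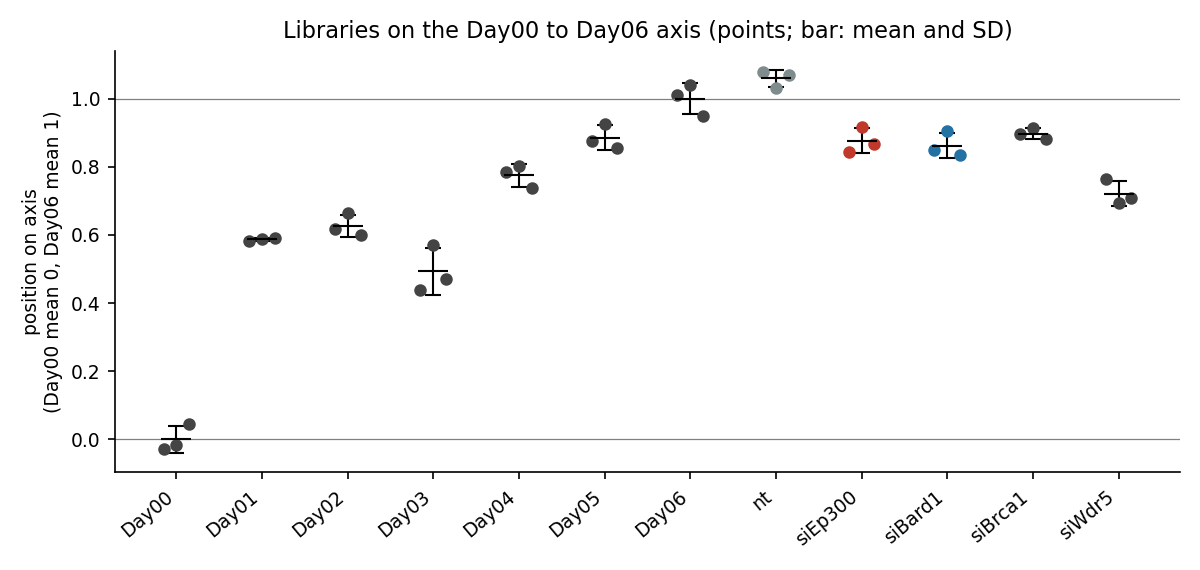
Position of each library on the straight line from the Day00 mean (0) to the Day06 mean (1) over the 3013 genes tested, with the mean and SD of 3 libraries as a bar. The libraries labelled siEp300 and siBard1 lie at the same height, between Day04 and Day06.

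On the line from the Day00 mean to the Day06 mean, the libraries labelled siEp300 stood at 0.84, 0.92 and 0.87 and those labelled siBard1 at 0.85, 0.90 and 0.83. The means, 0.88 ± 0.04 and 0.86 ± 0.04 (SD, n = 3), differed by 0.01, less than the spread of either group. The nt libraries stood at 1.06 ± 0.03, siBrca1 at 0.90 ± 0.02 and siWdr5 at 0.72 ± 0.04. Of the untransfected libraries, Day05 (0.89 ± 0.04) was nearest to the pair. With 3 libraries a group no test was made of these positions.

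Over the 49 called genes, the libraries labelled siBrca1 were nearer to siBard1 than to siEp300 in 23 of the 31 lower genes (74.2%) and in 7 of the 18 higher genes (38.9%), against 51.8% of all genes tested. For siWdr5 the shares were 32.3% and 33.3%, against 45.4% of all genes. Thy1 was at 320 ± 52.4 CPM in siBrca1 and at 428 ± 100 CPM in siWdr5, above the 139 ± 15.1 CPM of siEp300, and Crabp1 was at 734 ± 187 CPM in siBrca1 and at 438 ± 2.58 CPM in siWdr5, above the 203 ± 45.9 CPM of siEp300. The called genes were chosen on the siBard1 and siEp300 libraries themselves, so that no test was made of these shares.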

How the data were processed

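CEL-Seq2 libraries were made from 100 pg of bulk RNA with a barcode per library, and the 3 samples of the series are the sequenced pools of replicates 1 to 3. The condition of a library was read from its column name. The deposited counts are whole numbers of unique molecules per gene and are not normalized. Per the study's methods, the authors mapped reads to mm10 with Bowtie2, corrected for UMIs with the CEL-Seq2 pipeline and assigned them with the GENCODE vM13 annotation. The deposited log2 values are log2 CPM that the authors normalized by size factors and corrected for batch, and they served 1 alternative only. A library in both tables was required, which left 127 of 129, without replicate 3 of siMtf1 and 1 of 2 Mock columns of replicate 3. These 2 Mock columns share a name, so which one the log2 table holds is not given by the labels, and the one with the higher correlation was kept (0.973 against 0.0118). The alternative with all libraries does not rest on that choice.

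Counts were tested with edgeR 4.0.16 in R 4.3.3, with TMM scaling, filterByExpr by condition, and terms for condition and replicate, fitted to all 127 libraries (3013 genes, 83 residual degrees of freedom, common dispersion 0.0158). Adjustment was by Benjamini-Hochberg over all genes tested, at 0.05. SE were derived from the test statistic. Total counts limit the precision, and intervals and floors (3 counts) cover counting error only. The replicate number marks the sequenced pool, and deviations from the condition mean correlated at 0.135, 0.129 and 0.353 for the same-numbered pairs of siEp300 and siBard1 libraries, so the number was kept as a block. Per the study, transfections were done in triplicate, and whether these used separate cell preparations is not given in the sources used here, so p-values measure the spread between these libraries.

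Of the called genes, 2 are counted but named neither in the text nor in a plot. Genes were named by rule: the 12 genes that differed most on each side, if called, at a mean of at least 50 CPM in 1 condition and the same sign in 3 replicates, called members of the gene lists, and the siRNA targets with Brca1 and Crebbp. The members and lists were chosen with earlier results of these data known. Outside the rule, the called genes Rps3a1, Gm7600, Gm13408, Gm7384, Gm10925 and Gm5611 were also named. Each of them shares an end with another tested gene. Gene positions came from GENCODE vM21 (GRCm38), in which 2962 of the 3013 symbols matched once, and shared ends were found with BLAST+ 2.17.0. Positions on the time axis are projections of log2 CPM (prior count 2, replicate removed). Scripts were tested on simulated data. Alternatives were RLE scaling, no replicate term, no filter, a filter at 50 CPM, all libraries, only the libraries of the 2 conditions, DESeq2 1.42.0, limma 3.58.1 on the log2 values, leaving out each replicate and, added after the data were seen, Day02 or Day04 in place of Day03.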

Additional observations from a re-analysis of the deposited data

How the results depend on the processing

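Between siEp300 and siBard1, 49 genes were called (18 higher and 31 lower in siEp300). The count was 46 with RLE scaling and 41 with a mean of at least 50 CPM, all among the 49, 50 with only the libraries of the 2 conditions (40 among the 49) and 53 with DESeq2 (41 among the 49). Without the replicate block, 5 were called (1 higher and 4 lower), and between Day06 and Day03 the count was 285 in place of 480. Without the low-count filter, 22 were called (14 higher and 8 lower, of 30778 genes tested, 18 among the 49), and 206 between Day06 and Day03. With all libraries of the count table it was 23 (10 higher and 13 lower). With limma on the deposited log2 values, 6 were called (3 higher and 3 lower, 5 among the 49), with 412 at an unadjusted p under 0.05, and 299 between Day06 and Day03. Leaving out a replicate gave 11 to 23 calls (2 to 11 higher and 7 to 12 lower) and 191 to 299 between Day06 and Day03. With Day02 or Day04 in place of Day03, added after the data were seen, 131 and 58 genes differed from Day06 (91 and 40 among the 480). The fits without a replicate rest on fewer libraries and on other sets of genes that passed the filter, and the cause of the other differences was not tested. Of the 49, 4 kept their calls without each replicate in turn (Crabp1, Spp1, Thy1 and Gm10036), and 5 without the block. None of the 32 named genes tested by a fit changed the sign of its difference between siEp300 and siBard1 under any alternative. Crabp1, Spp1 and Thy1 were called under all 11 alternatives, with adjusted p up to 0.0295. Named genes kept their calls in 31 of 32 cases with RLE scaling, in all 25 with an adjusted p from DESeq2, in 5 of 32 without the replicate block and in 5 of 32 with limma. The difference between siEp300 and siBard1 on the time axis was 0.014, and 0.034 and -0.001 with the alternative axes. Ep300, Bard1, the epithelial and the pluripotency genes stayed under the filter at this depth.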
